A study of Mus musculus with 19 samples.

Results

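Open chromatin around 8 genes of the interferon regulatory factor (IRF) family, Irf1, Irf2, Irf3, Irf4, Irf5, Irf7, Irf8 and Irf9, was followed while mouse neural stem cells became astrocytes with or without the cytokine TNF. A peak was taken as belonging to a gene when its centre lay in the gene body or within 20 kb of either gene end (RefSeq, GRCm38), which gave 27 of the 90154 peaks of the deposited table. Irf2 had 7 of them, Irf1, Irf3 and Irf7 had 4 each, Irf9 had 3, Irf5 and Irf8 had 2 each and Irf4 had 1. The start and end of every one of the 27 peaks lie 500 bp apart, so their signals can be compared with each other without a length correction. Peaks are named by the distance of their centre from the 5′ end of the gene, so that Irf8 +2.7 kb lies 2.7 kb downstream of the Irf8 start, and the peak within 1 kb of the 5′ end and closest to it is called the start peak. A gene end, here and below, is either boundary of a gene, so a peak at a gene end can lie at the start of that gene.

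Neural stem cells were taken from the ventricular zone of C57BL/6J wild-type embryos at embryonic day 14, with each brain processed on its own, and grown as neurospheres (NSPs) in medium with 20 ng/ml EGF. Astrocytes were obtained by moving the cells to medium with 10% FBS on coated plates. ATAC-seq, in which a transposase cuts and tags accessible DNA, was run on NSPs (3 libraries), on cells at 24 h without TNF (3) and with 50 ng/ml TNF (3), on cells at 72 h without (3) and with TNF (3), and on untreated astrocytes at 1 week (4). All groups share the wild-type genotype. Every group except the NSPs was in the FBS medium on coated plates, so comparisons with NSPs also span the change of medium and plating. The 19 libraries include no TNF-treated cells at 1 week. The labels do not say which libraries came from separate brains or cultures, so the p-values below measure the spread between these libraries, which may be technical.

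IRF proteins bind DNA through a shared amino-terminal domain and read the interferon-stimulated response element (ISRE). Irf3, Irf5 and Irf7 are activated downstream of pattern recognition receptors and switch on type I interferon genes, Irf9 is part of the complex that carries the interferon signal to the nucleus, Irf1 is an activator that is itself induced by interferon-γ and by TNF, and Irf2 competes with Irf1 at shared sites. Irf4 and Irf8 are best known from lymphoid and myeloid cells, and Irf8 is needed for microglia. In astrocytes the family takes part in the response to interferons and to inflammatory cytokines.

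The promoter sequences of the 8 members were searched for binding motifs in the RefSeq windows from 250 bases before to 50 bases after the transcription start (GRCm38.p6), and those of Irf1, Irf2, Irf8 and Irf9 are shown because the start peaks or nearby peaks of these genes carry most of the differences described below. Capitals mark matches to the STAT site GAS (TTCNNNGAA), to the ISRE (a pair of GAAA with any 2 bases between them) or to the NF-κB motif, searched on both strands together with the AP-1 motif (TGANTCA). Each sequence is written 5′ to 3′ on the strand of the gene, which is the plus strand for all 4 genes.
Irf1, chr11:53769764-53770063: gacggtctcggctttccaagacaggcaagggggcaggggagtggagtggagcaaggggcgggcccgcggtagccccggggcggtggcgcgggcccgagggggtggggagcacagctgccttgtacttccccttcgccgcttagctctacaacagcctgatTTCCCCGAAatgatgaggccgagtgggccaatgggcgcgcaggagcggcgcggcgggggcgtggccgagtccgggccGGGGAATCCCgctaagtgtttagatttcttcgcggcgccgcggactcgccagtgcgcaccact
Irf2, chr8:46739495-46739794: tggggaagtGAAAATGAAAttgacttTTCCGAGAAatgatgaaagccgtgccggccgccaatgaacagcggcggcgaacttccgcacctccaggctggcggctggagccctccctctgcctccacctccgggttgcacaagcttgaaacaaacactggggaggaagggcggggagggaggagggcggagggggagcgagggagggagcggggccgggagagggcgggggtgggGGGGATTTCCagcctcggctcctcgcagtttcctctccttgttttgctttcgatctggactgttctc
Irf8, chr8:120736108-120736407: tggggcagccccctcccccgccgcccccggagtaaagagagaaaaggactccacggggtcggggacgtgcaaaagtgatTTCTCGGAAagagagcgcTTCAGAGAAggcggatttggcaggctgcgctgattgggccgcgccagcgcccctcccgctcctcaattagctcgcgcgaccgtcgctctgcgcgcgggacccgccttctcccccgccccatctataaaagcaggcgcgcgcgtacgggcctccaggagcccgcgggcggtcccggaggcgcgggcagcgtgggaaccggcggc
Irf9, chr14:55603735-55604034: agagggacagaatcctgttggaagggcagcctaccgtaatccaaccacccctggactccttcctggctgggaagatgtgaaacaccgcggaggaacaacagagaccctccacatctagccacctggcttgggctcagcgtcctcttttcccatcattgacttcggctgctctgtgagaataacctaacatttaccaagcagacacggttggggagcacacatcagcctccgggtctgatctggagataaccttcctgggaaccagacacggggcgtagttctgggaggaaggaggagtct
The Irf1 window held a GAS at bases -90 to -82 and an NF-κB match at -13 to -4 relative to the start site. The Irf2 window held an ISRE at -241 to -232, a GAS at -224 to -216 and an NF-κB match at -17 to -8. In the Irf8 window there were 2 GAS matches, at -171 to -163 and at -153 to -145. The windows of Irf3, Irf4, Irf5, Irf7 and Irf9 held none of the 4 motifs, which says only that these letters are not in these bases. The Irf5 and Irf7 windows are not placed at the 5′ end of the gene, and only 39 bases of the Irf5 window lay in its start peak. Irf1, Irf8 and Irf9 each had a further window, not shown, without a match. No match overlapped another. Of 32851 RefSeq promoter windows of the same length, 8.30% held a GAS, 3.44% an ISRE, 7.81% an AP-1 motif and 8.46% an NF-κB match. All 300 bases of the Irf1, Irf2 and Irf8 windows, and 190 of those of Irf9, lay inside the start peak of the gene.

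Signals are the deposited normalised read counts per peak, and 1 read was worth between 0.471 and 2.20 units depending on the library. The 19 libraries held 9640256 to 39349111 reads in peaks, and replicates of a group had Spearman correlations of 0.916 to 0.983 over all peaks. The shallowest library was 1 week replicate 3, and the 2 member values that rested on 3 reads or fewer both came from it. NSP replicate 1 lay apart from the other NSP libraries at several IRF peaks. The value without it is given below for some differences only, and others also depend on it. Leaving it out of the fit added TNF calls at Irf1 -6.2 kb, Irf2 +1.4 kb and Irf7 +9.6 kb at 24 h. At 72 h it added calls at the Irf2 start peak, Irf7 -15.1 kb and Irf9 -7.8 kb. From NSPs to 24 h and to 1 week, the Irf9 start peak then differed by 0.61 and 1.66. For the Irf8 start peak these differences were -0.55 and -0.37. Library names of the 72 h, 72 h TNF and 1 week groups carry a tag that the NSP and 24 h names lack, so the steps from 24 h to 72 h and from NSPs to 1 week cannot be told apart from whatever that tag stands for. Of 212 peaks that were nearly empty in all tagged libraries and well covered in all others, 0 were IRF peaks.

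TNF raised accessibility at a small set of IRF peaks, most strongly inside Irf8. At 24 h, 5 of the 27 peaks were higher with TNF and 0 were lower, beside 7.06% higher and 3.53% lower among all 88919 peaks tested (limma on log2(value + 1), adjusted p under 0.05). An unadjusted p under 0.05 was reached by 11 of the 27 at 24 h, edgeR also called 0 lower, and DESeq2 called 1, Irf7 +9.6 kb. Without NSP replicate 1 limma called 2 lower. The count of 5 was 2 without 24 h TNF replicate 3 and 3 without 24 h replicate 1 or 3. At 72 h, 7 were higher and 1 was lower, beside 6.24% and 5.55% of all peaks, with 3 lower when NSP replicate 1 was left out of the fit or reads were scaled to the total in peaks. The same 5 peaks were higher at both times: Irf1 -8.0 kb, Irf1 +26.9 kb, Irf2 +103.2 kb, the Irf5 start peak and Irf8 +2.7 kb. The 2 others called higher at 72 h were the Irf1 start peak and Irf3 +20.2 kb. The median TNF difference of the 27 peaks was 0.14 at 24 h and 0.16 at 72 h on the log2 scale, against -0.03 and 0.03 for all peaks. The TNF difference at 72 h was tested against that at 24 h for every peak, and the test was passed by 0 of the 27 (smallest adjusted p = 0.692, and 0 with an unadjusted p under 0.05) and by 0.00112% of all peaks. A peak called at 72 h and not at 24 h is therefore not shown to respond differently at the 2 times.

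**Figure D1:**
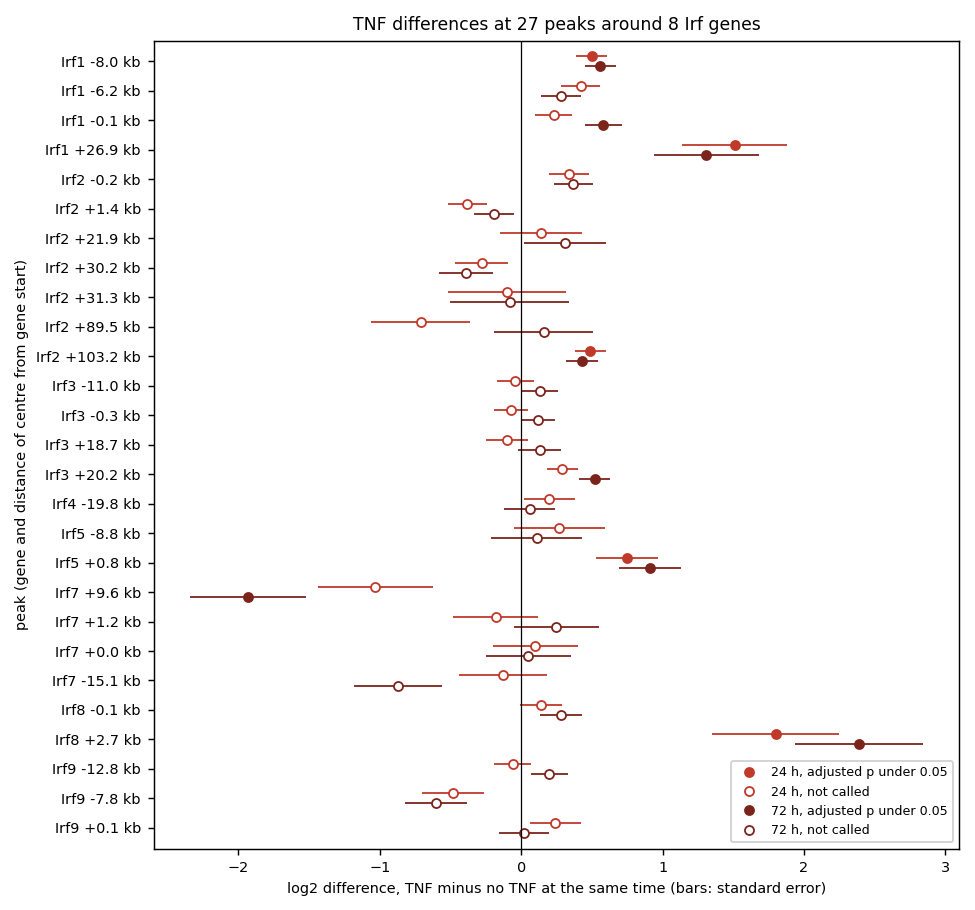
Log2 difference between TNF and no TNF (x axis, with standard errors) at each of the 27 IRF peaks (y axis), at 24 h and at 72 h, with filled points for an adjusted p under 0.05. Irf8 +2.7 kb lies farthest to the right at both times, at 1.80 and 2.39, and Irf7 +9.6 kb lies farthest to the left, at -1.03 and -1.93.

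In untreated differentiation the 27 peaks were called in both directions, and the shares of all peaks are given beside each count. From NSPs to 24 h, 6 peaks rose and 10 fell, beside 24.2% and 23.0% of all peaks. From 24 h to 72 h, 3 rose and 3 fell (11.1% each), beside 12.0% and 14.3%. From 72 h to 1 week, 10 rose and 5 fell, beside 22.5% and 16.2%. Between NSPs and 1 week, 9 were higher and 10 lower at 1 week (33.3% and 37.0%), near the 33.7% and 33.6% of all peaks. The median log2 differences of the 27 peaks were -0.16, 0.02, 0.31 and 0.01 in that order, against -0.07, -0.01, 0.02 and 0.01 for all peaks. The split depended on how the libraries were scaled: with reads scaled to the total in peaks, 8 rose and 4 fell at 24 h, and 5 rose and 9 fell from 72 h to 1 week, where cyclic loess gave 2 and 3. That total-read scaling moved the median of all peaks from -0.07 to 0.11 and from 0.02 to -0.31 in these 2 steps. The 10 falls at 24 h were 6 without 24 h replicate 3, and the 5 falls from 72 h to 1 week were 3 without 72 h replicate 1. Over the peaks within 1 kb of any protein-coding gene end, 13342 in all, 39.3% fell at 24 h and 54.0% rose from 72 h to 1 week, and of the 7 IRF start peaks 3 fell and 3 rose. The Irf7 start peak and Irf4 -19.8 kb passed the test in none of these comparisons, and the other 25 peaks passed in at least 1 of the comparisons run.

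**Figure D2:**
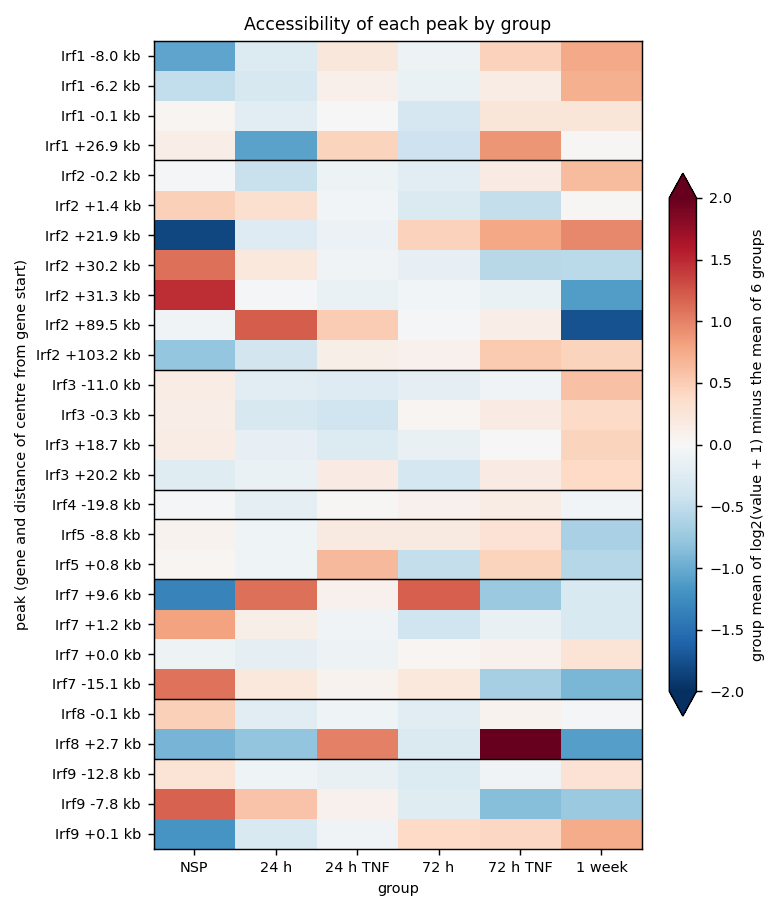
Mean log2(value + 1) of each IRF peak (rows) in each of the 6 groups (columns) minus the mean of the 6 groups, red for higher and blue for lower, with the colours ending at -2 and 2. Irf1 -8.0 kb and the Irf9 start peak go from blue in NSPs (-1.06 and -1.18) to red at 1 week (0.75 and 0.74), and Irf8 +2.7 kb is red only in the 2 TNF columns (1.01 and 2.10).

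Irf8, the factor that myeloid cells and microglia depend on, held the largest TNF difference of the family. The peak Irf8 +2.7 kb (chr8:120738801-120739301) lies inside the gene. A further RefSeq start site of Irf8, at chr8:120738639, lies just upstream of this peak, so the peak is beside an annotated second start. The peak Irf8 +2.7 kb is not the start peak as defined above. It had 7.97, 14.8 and 22.2 units in the untreated libraries at 24 h and 31.8, 58.2 and 70.6 with TNF. At 72 h it had 19.3, 29.9 and 14.0 units without TNF and 86.7, 139 and 109 with it. All 6 TNF libraries lay above all 6 untreated libraries of the same times, and all were above the NSP libraries (28.6, 6.60 and 9.97) and the 1 week libraries (9.65 to 15.4). The log2 difference was 1.80 ± 0.45 at 24 h (fitted fold 3.49, adjusted p = 0.00788) and 2.39 ± 0.45 at 72 h (fitted fold 5.24, adjusted p = 0.000543). The untreated values rest on 7 to 25 reads a library and the TNF values on 36 to 97. The 72 h difference passed the test under all 29 alternatives, and the 24 h difference was not called when 24 h replicate 1 or 24 h TNF replicate 3 was left out (adjusted p up to 0.0723). Without TNF, no comparison along differentiation moved this peak past the threshold. The log2 difference was 0.51 ± 0.45 from 24 h to 72 h and -0.81 ± 0.42 from 72 h to 1 week (adjusted p = 0.126). With total-read scaling the step from 72 h to 1 week was called lower (adjusted p = 0.029). Against NSPs the log2 differences were 0.14 ± 0.45 at 24 h and -0.17 ± 0.42 at 1 week. Without NSP replicate 1 these were 0.70 (adjusted p = 0.199) and 0.40 (adjusted p = 0.418), so no direction can be given for them.

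The Irf8 start peak behaved otherwise. It was highest in NSPs (434, 327 and 296 units) and fell to 199, 236 and 206 at 24 h, a log2 difference of -0.70 ± 0.15 (adjusted p = 0.000334). It stayed below every NSP library at 1 week (216 to 291), with a difference of -0.53 ± 0.14 from NSPs (adjusted p = 0.00167). With TNF the differences were 0.14 ± 0.15 at 24 h and 0.28 ± 0.15 at 72 h, and neither passed the test. Across the 19 libraries the 2 Irf8 peaks had a Pearson correlation of 0.05 on the log2 scale, given as a description.

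Because Irf8 is a gene of myeloid cells, the open chromatin of a list of 12 microglial and myeloid markers was read beside it. Aif1, Cx3cr1, Csf1r, Ptprc, Itgam, Trem2 and Tyrobp had no peak within 1 kb of a gene end in the table used here, and P2ry12, Tmem119, Spi1, Cd68 and Fcgr3 had 1 each. The summed signal of these 5 was 563 to 591 units at 24 h and 654 to 724 with TNF, and 592 to 649 at 72 h and 695 to 743 with TNF. The TNF groups lay higher in this sum at both times, with the rise mostly from Cd68. P2ry12 and Fcgr3 had lower means with TNF at both times, and Tmem119 at 24 h. Cd68, a lysosomal glycoprotein of phagocytes, was the 1 marker called, with mean signals of 225 and 362 units at 24 h (log2 difference 0.69, adjusted p = 0.00088) and 262 and 344 at 72 h (adjusted p = 0.0555). P2ry12, a purinergic receptor of resting microglia, had means of 57.4 and 42.9 units at 24 h and 62.3 and 43.2 at 72 h, and Spi1, the master factor of the myeloid lineage, had 200 and 209, then 242 and 261. Tmem119 had 83.2 and 74.8 units at 24 h and 55.4 and 64.2 at 72 h, and Fcgr3 had 11.5 and 10.5, then 7.18 and 4.95. None of these 4 markers was called with TNF at either time. The part of other cell types in the Irf8 difference was not tested, and in bulk libraries more cells of a type and more open chromatin per cell cannot be told apart. The lymphoid markers Cd3e, Cd79a and Ms4a1 had no gene-end peak.

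At Irf1, the activator of interferon-stimulated and antigen presentation genes, the peak at -8.0 kb gained accessibility both with TNF and with differentiation. Not all peaks of the gene rose with differentiation, as described below. The -8.0 kb peak (chr11:53761785-53762285) had 452, 541 and 538 units in NSPs, 923, 795 and 910 at 24 h, 1029, 920 and 1031 at 72 h, and 1706, 1680, 2154 and 1661 at 1 week. With TNF it had 1231, 1220 and 1267 units at 24 h and 1480, 1485 and 1438 at 72 h. The TNF libraries were above every untreated library of their time and below every library at 1 week. The TNF difference was 0.50 ± 0.11 at 24 h (fold 1.42, adjusted p = 0.0023) and 0.56 ± 0.11 at 72 h (fold 1.48, adjusted p = 0.000693), and both passed under all 29 alternatives. In untreated cells the rise from NSPs was 0.78 ± 0.11 by 24 h (adjusted p = 8.6e-07) and 1.81 ± 0.10 by 1 week (fold 3.52, adjusted p = 1.67e-15). The step from 72 h to 1 week was 0.85 ± 0.10 (adjusted p = 5.15e-07), and cyclic loess scaling reduced it to 0.27 with an adjusted p of 0.0540.

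The neighbouring peak at -6.2 kb followed the same course at a lower level, from 127 to 141 units in NSPs to 281 to 345 at 1 week, and correlated with the -8.0 kb peak at r = 0.90 over the 19 libraries. It rose by 1.20 ± 0.13 on the log2 scale between NSPs and 1 week (adjusted p = 5.07e-09). Its TNF difference at 24 h was 0.42 ± 0.14 with an adjusted p of 0.0573, and at 72 h it was 0.28 ± 0.14. The TNF libraries at 24 h (192, 199 and 214 units) did not overlap the untreated ones (154, 145 and 153). At 72 h the groups overlapped, with 177 to 239 units with TNF and 157 to 198 without.

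At the Irf1 start peak (chr11:53769664-53770164), which covers the GAS and the NF-κB match shown above, the untreated libraries had 312, 372 and 325 units at 24 h and 309, 331 and 288 at 72 h. With TNF they had 384, 386 and 412 units at 24 h and 471, 412 and 510 at 72 h. The TNF libraries were again above the untreated ones at both times. The 72 h difference of 0.58 ± 0.13 passed the test under all 29 alternatives (adjusted p = 0.00321), while the 24 h difference of 0.23 ± 0.13 did not pass (adjusted p = 0.315). NSPs had 505, 347 and 373 units and 1 week astrocytes 436 to 498, and these groups were not distinguished (0.20 ± 0.12, adjusted p = 0.142), although they were when NSP replicate 1 was left out (0.37, adjusted p = 0.00564).

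The downstream peak Irf1 +26.9 kb was weaker and more variable. It had 20.5, 17.7 and 6.16 units at 24 h without TNF and 31.0, 37.7 and 53.0 with it, and at 72 h it had 16.7, 29.9 and 19.1 without and 78.7, 42.9 and 46.8 with TNF. The groups did not overlap at either time. The differences were 1.51 ± 0.37 (adjusted p = 0.00735) and 1.31 ± 0.37 (adjusted p = 0.0197). Neither call held for every library: leaving out 24 h replicate 3 or 24 h TNF replicate 3 gave an adjusted p of up to 0.0735, and leaving out 72 h replicate 1, 72 h replicate 3 or 72 h TNF replicate 1 gave one of up to 0.127. In untreated cells this peak fell from NSPs (29.2, 33.9 and 31.9 units) to 24 h by 1.20 ± 0.37 on the log2 scale (adjusted p = 0.00952), a call also lost without 24 h replicate 3 (adjusted p up to 0.12). At 1 week it had 25.6 to 33.2 units, close to the NSP level (-0.11 ± 0.35).

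**Figure D3:**
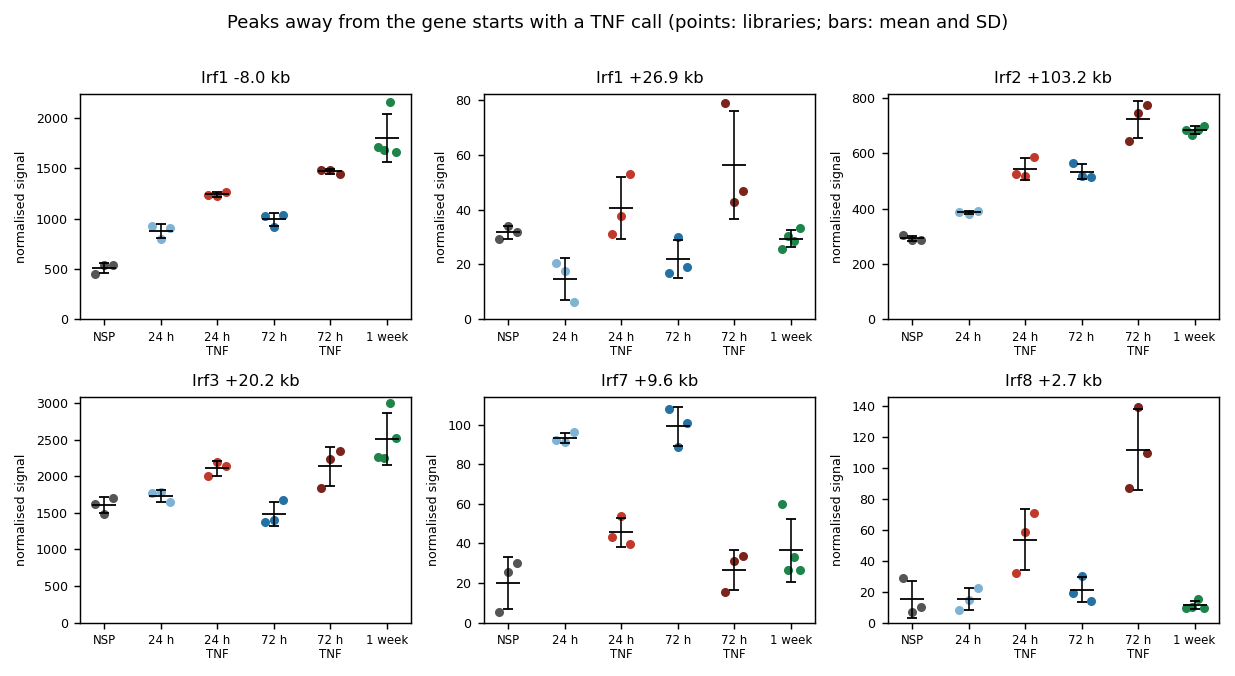
Normalised signal (y axes) per library in the 6 groups (x axes) at the 6 IRF peaks other than start peaks that were called for TNF, with the mean and SD of each group. At Irf8 +2.7 kb the TNF libraries reach 31.8 to 70.6 units at 24 h and 86.7 to 139 at 72 h, above all other libraries, and at Irf7 +9.6 kb the untreated libraries at 24 h and 72 h stand above the rest at 88.5 to 108.

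Irf2, the family member that competes with Irf1, has a long gene with 6 peaks in its body, and they did not move together. The peak at +103.2 kb (chr8:46842645-46843145), near the 3′ end, rose at each step of untreated differentiation. It had 304, 286 and 288 units in NSPs, 388, 382 and 393 at 24 h, 565, 519 and 516 at 72 h and 668 to 700 at 1 week. With TNF it had 525, 518 and 589 units at 24 h and 646, 748 and 775 at 72 h. No TNF library overlapped the untreated libraries of its time. The TNF difference was 0.49 ± 0.11 at 24 h (adjusted p = 0.00229) and 0.43 ± 0.11 at 72 h (adjusted p = 0.00579), called under all 29 alternatives. From NSPs to 1 week the rise was 1.22 ± 0.10 (fold 2.33, adjusted p = 5.81e-12), but its last step from 72 h, 0.36 ± 0.10 (adjusted p = 0.00473), was 0.02 with total-read scaling and turned to -0.03 under cyclic loess.

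The other Irf2 peaks separated into gains and losses, and none was called for TNF. Irf2 +21.9 kb went from 26.3, 14.1 and 10.6 units in NSPs to 60.3, 47.2 and 40.6 at 24 h and 89.0 to 141 at 1 week, with a log2 difference of 1.56 ± 0.29 at 24 h (adjusted p = 5.25e-05) and 2.78 ± 0.27 at 1 week (fold 6.88, adjusted p = 2.87e-10), the largest rise of the 27 peaks between NSPs and 1 week. Irf2 +30.2 kb went the other way, from 272, 276 and 264 units in NSPs to 159, 156 and 122 at 24 h and 76.4 to 101 at 1 week (-1.65 ± 0.17 from NSPs, adjusted p = 1.78e-09). Irf2 +31.3 kb, the next peak downstream, fell from 95.2, 114 and 107 units to 42.1, 32.5 and 34.5 at 24 h and 4.40 to 29.1 at 1 week (-2.60 ± 0.39, adjusted p = 9.83e-07). The gain and the 2 losses are neighbouring peaks of the same gene. Over the 19 libraries Irf2 +30.2 kb correlated at -0.91 with Irf2 +103.2 kb and at -0.86 with Irf2 +21.9 kb.

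Irf2 +89.5 kb was most open at 24 h. It had 39.7, 23.1 and 25.9 units in NSPs, 91.1, 72.3 and 55.4 at 24 h, 29.6, 43.1 and 20.4 at 72 h and 6.43 to 13.2 at 1 week. The 24 h libraries stood above those of every other group and the 1 week libraries below. The rise at 24 h was 1.28 ± 0.35 (adjusted p = 0.00331), the fall to 72 h was -1.24 ± 0.35 (adjusted p = 0.00915) and the fall from 72 h to 1 week was -1.71 ± 0.33 (adjusted p = 0.000162). The middle step was not called without 24 h replicate 1 or 72 h replicate 3 (adjusted p up to 0.0639). With TNF at 24 h the peak had 51.3, 45.2 and 35.3 units, below the untreated libraries, and the difference of -0.71 ± 0.35 did not pass (adjusted p = 0.229).

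The Irf2 start peak, whose promoter window holds an ISRE, a GAS and an NF-κB match, had 399, 310 and 352 units in NSPs, 237, 317 and 248 at 24 h, 266 to 356 at 72 h and 506 to 597 at 1 week. All 4 libraries at 1 week lay above those of the other groups, and the rise from 72 h was 0.83 ± 0.13 (adjusted p = 1.28e-05). The fall at 24 h of -0.41 ± 0.14 (adjusted p = 0.0153) was not called without NSP replicate 1, 24 h replicate 1 or 24 h replicate 3, or with total-read or loess scaling. With TNF the differences were 0.34 ± 0.14 (adjusted p = 0.123) and 0.37 ± 0.14 (adjusted p = 0.0778). Irf2 +1.4 kb fell from 411, 446 and 393 units at 24 h to 246, 276 and 296 at 72 h (-0.61 ± 0.14, adjusted p = 0.00159) and was below the NSP level at 1 week (-0.46 ± 0.13, adjusted p = 0.00264).

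Irf5, a factor used downstream of Toll-like receptors, had a start peak 0.8 kb inside the gene (chr6:29526636-29527136). It had 83.1, 81.1 and 65.3 units at 24 h and 145, 109 and 134 with TNF, and 64.3, 51.4 and 59.9 at 72 h and 136, 88.7 and 112 with TNF. The TNF libraries were above the untreated ones at both times, by 0.75 ± 0.22 at 24 h (fold 1.68, adjusted p = 0.0279) and 0.91 ± 0.22 at 72 h (fold 1.88, adjusted p = 0.00657). The 24 h call was lost when 24 h replicate 1, 2 or 3 or 24 h TNF replicate 1 or 3 was left out (adjusted p up to 0.124), and the 72 h call when 72 h TNF replicate 1 was left out (adjusted p = 0.0566). Untreated cells at 1 week had 40.5 to 68.2 units, below NSPs (77.7, 98.5 and 75.1) by 0.60 ± 0.21 on the log2 scale (adjusted p = 0.0133), a call lost without NSP replicate 2 or 1 week replicate 2 (adjusted p up to 0.0837). The second peak, Irf5 -8.8 kb, had 17.2 to 59.2 units over all libraries and showed no TNF call (0.27 ± 0.32 and 0.11 ± 0.32). It was lower at 1 week than at 72 h (-0.83 ± 0.30, adjusted p = 0.0274), a call lost without 72 h replicate 1 or 3 or 1 week replicate 4 (adjusted p up to 0.128) or under cyclic loess (0.161). The call was also lost when the sample number or the library name number was added to the fit (adjusted p = 0.102 and 0.0615).

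Irf3 and Irf7, the factors that induce type I interferon genes, had no TNF call at their start peaks. The Irf3 start peak (chr7:44997071-44997571) is shared with Bcl2l12, a neighbouring gene that starts beside it, so its signal cannot be assigned to either. It fell from 609, 537 and 534 units in NSPs to 411, 394 and 413 at 24 h (-0.46 ± 0.12, adjusted p = 0.00263) and then rose to 499, 542 and 517 at 72 h (0.36 ± 0.12, adjusted p = 0.0311) and to 559 to 740 at 1 week (0.35 ± 0.11, adjusted p = 0.0151). The rise from 24 h to 72 h was not called when any 1 of the 6 libraries of those groups was left out (adjusted p up to 0.0981), and the fall at 24 h was not called with total-read or loess scaling. The last rise was lost without 72 h replicate 1 or 1 week replicate 2 (adjusted p up to 0.0597) and with TMM (0.26), was 0.01 with total-read scaling and turned to -0.03 under cyclic loess. TNF differences there were -0.07 ± 0.12 and 0.12 ± 0.12.

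The remaining peaks around Irf3 lie at ends of other genes, and whether these are starts is not given here. Irf3 -11.0 kb is at an end of Prmt1, an arginine methyltransferase gene, with 2144 to 5037 units. Irf3 +18.7 kb is at an end of Scaf1, with 1132 to 2393 units. With the deposited scaling both rose from 72 h to 1 week, by 0.77 ± 0.12 (adjusted p = 1.1e-05) and 0.59 ± 0.14 (adjusted p = 0.00157), but under cyclic loess the differences were -0.04 and -0.06, and total-read scaling left the second at 0.25 without a call. Neither was called for TNF. Irf3 +20.2 kb lies 100 bp from an end of Rras, a small GTPase gene. It had 1377, 1403 and 1671 units at 72 h and 1837, 2229 and 2342 with TNF, which did not overlap. That TNF difference was 0.52 ± 0.11 (adjusted p = 0.00249) at 72 h and 0.29 ± 0.11 (adjusted p = 0.118) at 24 h. Counted by the nearest gene end, it belongs to Rras and not to Irf3.

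The Irf7 start peak (chr7:141266215-141266715) had low and scattered signal in every group, with a mean of 53.4 ± 12.8 units (SD, n = 3) in NSPs. Untreated cells had 50.0 ± 11.6 units at 24 h, 60.1 ± 18.9 at 72 h (SD, n = 3 each) and 72.0 ± 29.0 at 1 week (SD, n = 4). TNF-treated cells had 53.0 ± 6.65 units at the earlier time and 61.9 ± 18.4 at the later one (SD, n = 3 each). All groups overlapped their neighbours in this order of levels. The TNF differences were 0.10 ± 0.30 at 24 h and 0.05 ± 0.30 at 72 h, and at this spread the data do not show that the peak stayed the same. Irf7 +1.2 kb, inside the gene, was lower at 1 week than in NSPs (24.7 to 35.2 against 47.3, 87.2 and 66.4 units, -1.12 ± 0.28, adjusted p = 0.000815).

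**Figure D4:**
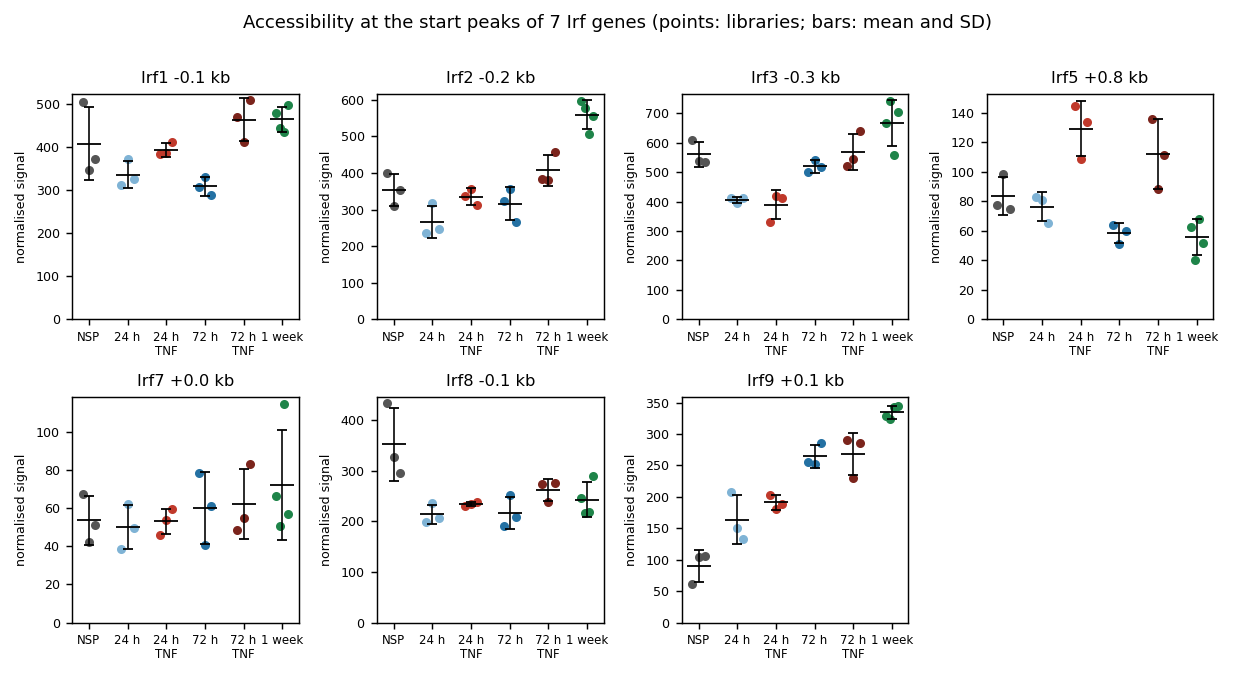
Normalised signal (y axes) per library in the 6 groups (x axes) at the start peaks of the 7 members that have one, with the mean and SD of each group. The Irf9 start peak climbs from 61.3 to 106 units in NSPs to 323 to 344 at 1 week, the Irf5 start peak is highest in the TNF groups, and the Irf7 start peak stays between 38.7 and 114 units in all libraries.

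Beyond Irf7 and inside the neighbouring gene Phrf1, the peak Irf7 +9.6 kb (chr7:141256638-141257138) was the 1 peak called lower with TNF. It had 5.26, 25.4 and 29.9 units in NSPs and rose to 92.2, 91.5 and 96.1 at 24 h and to 108, 88.5 and 101 at 72 h. With TNF it had 43.3, 53.9 and 39.5 units at 24 h and 15.2, 31.0 and 33.6 at 72 h. The TNF libraries were below every untreated library of the same time. The loss was -1.93 ± 0.41 at 72 h (fold 0.262, adjusted p = 0.00199), called under all 29 alternatives, and the 24 h difference of -1.03 ± 0.41 did not pass (adjusted p = 0.118). The early gain was 2.45 ± 0.41 (fold 5.47, adjusted p = 1.58e-05), and it was 1.72 (adjusted p = 3.26e-05) without NSP replicate 1, the lowest library. At the end of the course, 1 week astrocytes had 26.5 to 60.0 units (-1.49 ± 0.39 from 72 h, adjusted p = 0.00313). The list of astrocyte markers did not follow this course as a whole. Of 6 gene-end peaks, 1 rose and 3 fell from NSPs to 24 h, and with TNF 0 were called at 24 h and 2 were lower at 72 h. Gfap, the intermediate filament gene of astrocytes and the 1 that rose, had means of 108 units in NSPs, 489 at 24 h, 529 at 72 h and 246 at 72 h with TNF (adjusted p = 0.00106 for TNF at 72 h). S100b, a calcium-binding protein gene, fell from 562 units in NSPs to 372 at 24 h and was lower with TNF at 72 h (-0.54, adjusted p = 0.015), while the glutamate transporter genes Slc1a3 and Slc1a2 had TNF differences of -0.08 and 0.13 at 72 h. The part of astrocyte state in the peak's course was not tested. On the other side of the gene, Irf7 -15.1 kb, nearest to Sct, fell from 141, 81.0 and 81.7 units in NSPs to 19.8 to 28.8 at 1 week (fitted fold 0.25, adjusted p = 7.41e-07).

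Irf9, the DNA-binding subunit of an interferon-activated complex, had the start peak that rose most during differentiation. The peak (chr14:55603845-55604345) also lies within 1 kb of an end of Rnf31, a ubiquitin ligase gene. It had 61.3, 104 and 106 units in NSPs, 208, 150 and 133 at 24 h, 256, 252 and 286 at 72 h and 329, 323, 343 and 344 at 1 week. The groups did not overlap from one untreated time to the next. The rise was 0.87 ± 0.18 by 24 h (adjusted p = 0.000194), a further 0.71 ± 0.18 by 72 h (adjusted p = 0.00365), and 1.92 ± 0.17 in all by 1 week (fold 3.78, adjusted p = 2.78e-11), while the last step of 0.34 ± 0.17 did not pass (adjusted p = 0.104). TNF made no difference that passed, with 203, 181 and 189 units at 24 h (0.24 ± 0.18) and 291, 231 and 286 at 72 h (0.02 ± 0.18).

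Upstream of Irf9, the peak at -7.8 kb inside Rnf31 ran opposite to the start peak (r = -0.80 over the 19 libraries). It fell from 220, 448 and 370 units in NSPs to 125, 106 and 139 at 72 h and 67.0 to 125 at 1 week, by 1.92 ± 0.21 in all (adjusted p = 3.5e-09). With TNF it was lower by 0.48 ± 0.22 and 0.60 ± 0.22 on the log2 scale, which did not pass (adjusted p = 0.197 and 0.0818). Irf9 -12.8 kb lies within 1 kb of an end of both Psme2 and Rnf31. It had 996 to 1939 units over all libraries and no TNF call (-0.06 ± 0.13 and 0.20 ± 0.13). Psme2 encodes a proteasome activator subunit that interferon-γ induces.

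Irf4, a factor of lymphocyte and dendritic cell differentiation, had no start peak in the table used here. Its single peak at -19.8 kb (chr13:30729210-30729710), 18228 bp from an end of Dusp22, had 87.7 to 143 units in all 19 libraries. The log2 differences with TNF were 0.20 ± 0.18 and 0.06 ± 0.18, and those of differentiation lay between -0.15 and 0.26, none past the threshold.

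The start peaks were also compared with the 13342 gene-end peaks of all protein-coding genes by the Pearson correlation of log2(value + 1) over the 19 libraries, which share depth and base composition, so the values are descriptions only. The Irf1 start peak was most like that of Rela (r = 0.897), the NF-κB subunit p65, then those of Ntn1 (0.879) and Abca1 (0.865). The Irf5 start peak was most like the shared end of Asb6 and Ntmt1 (0.878) and that of Tlr2 (0.877), a receptor for bacterial lipoproteins, followed by Syt11 (0.860). The Irf8 start peak was like those of Nrarp (0.907) and Dusp1 (0.892). The Irf9 start peak was most like Palm3 (0.959), Lrrn4cl (0.958) and Plcxd1 (0.957). For Irf2 the closest were Yif1a (0.936), Pan2 (0.928) and Rint1 (0.924), for Irf3 they were Cuedc2 (0.933), the shared end of Tor2a and Ttc16 (0.927) and Sf3b2 (0.926), and for Irf7 the values were lower, led by the shared end of Sgsh and Slc26a11 (0.740), then B4galnt4 (0.722) and the shared end of Tmem25 and Ttc36 (0.697).

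Genes that act before and after the IRFs were read at their gene-end peaks in 4 lists. Of the IRF target genes, 16 of 21 had a peak (Mx1 and Mx2 were not matched to the gene table), at 15 distinct positions since Psmb9 and Tap1 share one, and TNF raised 3 at 24 h and 3 at 72 h while lowering 0, beside 1.97% higher and 0.854% lower at 24 h and 3.29% and 1.45% at 72 h among all gene-end peaks. The median TNF difference of these 15 was 0.46 at 24 h and 0.35 at 72 h, against -0.04 and 0.12. Cxcl10, a chemokine that attracts T cells, went from a mean of 38.2 units to 141 with TNF at 24 h (1.83, adjusted p = 1.46e-06) and from 77.8 to 329 at 72 h (2.12, adjusted p = 1.4e-07). Ifit1, an inhibitor of viral RNA translation, went from 42.4 to 88.3 units at 24 h (1.07, adjusted p = 0.00125) and from 70.5 to 156 at 72 h (1.14, adjusted p = 0.000696). Gbp2, an interferon-induced GTPase, rose at 24 h from 141 to 207 units (0.55, adjusted p = 0.0264), and Oasl2 at 72 h from 22.7 to 49.7 (1.15, adjusted p = 0.0276).

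In the list of interferon receptors and JAK-STAT genes, all 10 had a peak, 0 were called for TNF at 24 h by limma (1 with an unadjusted p under 0.05) and 1 was higher at 72 h, Ifngr2, a chain of the interferon-γ receptor (0.76). Among the sensors, adaptors and kinases upstream of the IRFs, 12 of 13 had a peak, 0 were called at 24 h (1 with an unadjusted p under 0.05) and 3 were higher at 72 h: Tlr4, the lipopolysaccharide receptor (0.81), Traf3, an adaptor of the interferon-inducing pathway (0.81), and Ifih1, the cytosolic RNA sensor MDA5 (0.56). Of 9 IRF partners and corepressors, 7 had a peak, 0 were called at 24 h (2 with an unadjusted p under 0.05) and 2 were higher at 72 h, the NF-κB genes Nfkb1 (0.46) and Rela (0.44). Among the members of these 4 lists no peak was called lower with TNF at either time. From 72 h to 1 week, without TNF, 9 of 10 receptor and JAK-STAT peaks rose, 4 of 12 sensor and kinase peaks, 5 of 15 target peaks and 5 of 7 partner peaks, beside 54.0% of all gene-end peaks. The list counts rest on the deposited scaling and were not repeated under another. Over all peaks, total-read scaling gave 7965 higher and 30033 lower in this step, against 20035 and 14383 with the deposited scaling.

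**Figure D5:**
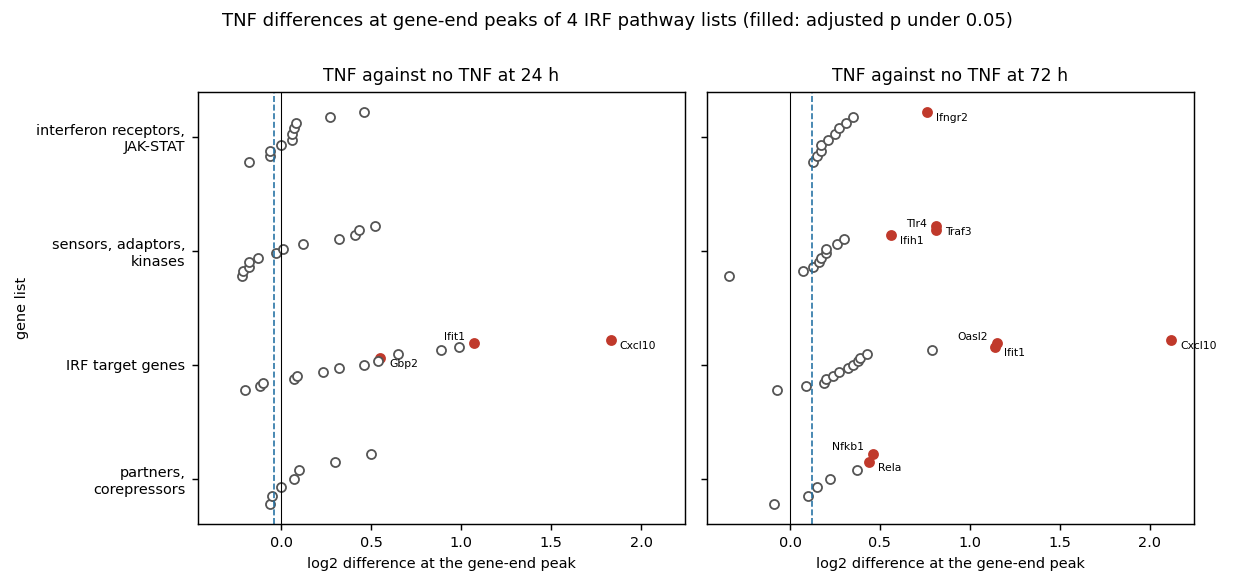
Log2 difference between TNF and no TNF (x axes) at the gene-end peaks of the 4 gene lists (y axis), at 24 h on the left and 72 h on the right, with filled points for an adjusted p under 0.05 and a dashed line at the median of all gene-end peaks (-0.04 and 0.12). Cxcl10 stands farthest to the right at both times, at 1.83 and 2.12, and no filled point lies below 0.

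The labelled cell types were checked against further markers. Hes5, a Notch target of progenitors, fell from a gene-end mean of 1980 units in NSPs to 93.0 at 1 week, the largest fall among 5 progenitor markers, of which 2 were lower and 0 higher at 1 week than in NSPs. Sox2 and Nes, a transcription factor and an intermediate filament gene of neural stem cells, differed by 0.03 and 0.14 between these groups, and neither was called. The summed signal of the 5 was 4530 to 5150 units in NSPs, 1860 to 2200 at 72 h and 2450 to 2730 at 1 week, so it did not fall steadily. Over 6 astrocyte markers the summed signal was 1350 to 1510 units in NSPs, 1400 to 1660 at 24 h, 1560 to 1670 at 72 h and 1160 to 1310 at 1 week, and it was lower with TNF at both times (1150 to 1280 and 1160 to 1240). Gene-end peaks of neuronal markers had signal in every group, with 680 to 1010 units summed over 3 markers, while Rbfox3 had no such peak. An open gene end does not by itself show that neurons are present. The paper reports that staining found neither neurons nor oligodendrocytes under its differentiation conditions. The part of cell composition in the IRF differences was not tested.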

How the data were processed

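Per the labels and the study's methods, reads were trimmed with Trim Galore, aligned to mm10 with Bowtie2, sorted with SAMtools and freed of mitochondrial reads, peaks were called with MACS2, and blacklisted peaks were removed. The authors deposited 1 table of normalised signal for 90154 peaks in 19 libraries, and versions are not given in the sources used here. In every column of that signal table all values were whole multiples (within 0.01) of its lowest value, so whole reads were recovered and tested as alternatives.

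Values were analysed as log2(value + 1) with limma 3.58.1 (trend, two-sided) in R 4.3.3, with a mean per group over all 19 libraries, for the 88919 peaks that passed edgeR's filterByExpr (minimum count 10), 1235 being left out. All 27 IRF peaks passed. P-values were Benjamini-Hochberg adjusted over all peaks in each of 7 comparisons, and calls were made at 0.05. A fold change on the log2(value + 1) scale understates the change of low peaks. Errors are standard errors of the fit unless marked SD. Precision follows depth: the lowest IRF value rests on 2 reads.

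Named peaks were each start peak, the 5 (TNF) or 3 (differentiation) smallest p-values per direction among calls, the gene-body peaks, up to 3 genes per pathway list with the smallest p for TNF at 24 h, and the 3 most alike gene-end peaks. The list genes given for 72 h were added as calls after their values were seen. Some genes that these rules and lists take in are not reported here. The members and lists were chosen with earlier results of these data known. The alternatives used edgeR 4.0.16 and DESeq2 1.42.0. The fit was also run on simulated counts, whose outcome is not given here. Replicate numbers gave no clear pairing of the samples: same-numbered libraries correlated between -0.0767 and 0.151 in their deviations from the group means. With so few libraries a group, these correlations cannot exclude a pairing.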

Additional observations from a re-analysis of the deposited data

Results flagged for a closer look

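In the 1 week group of 4 libraries, replicate 3 lay apart from the other 3 at 4 of the 27 IRF peaks, by Dixon's test at the 95% level, where chance flags about 1 group in 20. It had 2150 units at Irf1 -8.0 kb, where the lowest library had 1660 (ratio of gap to range 0.909), and 5040 units at Irf3 -11.0 kb, where the lowest had 3810 (0.839). At Irf8 +2.7 kb it had 15.4 units against a lowest value of 9.65 (0.916), and at Irf9 -12.8 kb it had 1720 units against 1570 (0.883). Replicate 3 was the highest library of the group at all 4 peaks, and with 9640256 reads in peaks it was the shallowest of the 19 libraries. The increase of Irf1 -8.0 kb between NSPs and 1 week was called under all 29 alternatives, the one without this library included. The part of depth in these 4 values was not tested.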

How the results depend on the processing

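Of 69 calls over the 27 peaks and 6 comparisons, 42 held under all 29 alternatives and 27 were lost under at least 1. TNF calls at 24 h (5 higher, 0 lower) numbered 3 and 0 in a window of 5 kb (15 peaks), 2 to 6 higher and 0 to 2 lower when 1 library was left out, 3 lower with only the groups compared and 1 lower with DESeq2. At 72 h (7 higher, 1 lower), leaving out 1 library gave 5 to 8 and 1 to 3. Lower calls at 72 h were 3 with total-read scaling, 2 with only the groups compared, 0 within 5 kb and 0 for the 18 peaks nearest to the member's own end, and higher calls were 4 within 5 kb. Falls from NSPs to 24 h (10) were 4 with total-read scaling, 5 with only the groups compared, 5 within 5 kb, 5 for own-end peaks and 6 to 11 with 1 library left out. Rises from 24 h to 72 h (3) were 5 with cyclic loess. From 72 h to 1 week, the 10 rises were 5 with total-read scaling, 2 with cyclic loess, 4 within 5 kb and 5 for own-end peaks, and the 5 falls were 9, 3, 2 and 3 in that order, and 3 to 6 with 1 library left out. Rises from NSPs to 1 week (9) were 4 within 5 kb. Fewer peaks enter the 2 narrower windows, and for the other changes the cause was not tested.

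Under cyclic loess the rise from 72 h to 1 week turned to -0.03 at Irf2 +103.2 kb, -0.04 at Irf3 -11.0 kb, -0.03 at Irf3 -0.3 kb, -0.06 at Irf3 +18.7 kb and -0.07 at Irf9 -12.8 kb, and Irf9 -12.8 kb differed by -0.18 between 1 week and NSPs (adjusted p = 0.0393). Over all peaks, total-read scaling gave 26112 higher and 12367 lower at 24 h against NSPs (limma as above 21492 and 20490), 7965 and 30033 from 72 h to 1 week (limma as above 20035 and 14383), and 4221 and 6601 for TNF at 72 h (limma as above 5551 and 4932). It gave 13867 and 10504 from 24 h to 72 h (limma as above 10688 and 12756). From 72 h to 1 week, cyclic loess gave 11572 and 10295 and TMM 15888 and 17801. With 1 library left out, TNF gave as few as 3860 higher and 1525 lower at 24 h and 3602 and 2829 at 72 h, and up to 8386 and 5427 at 24 h without NSP replicate 1. With only the groups compared, TNF gave 8467 and 5750 at 24 h (limma as above 6274 and 3136) and 8739 and 7686 at 72 h. Tests of the TNF difference between times called 26 higher and 162 lower in that fit and 18 and 67 with DESeq2 (limma as above 0 and 1), and 36 and 150 without NSP replicate 1, with 0 IRF peaks among them in each case.

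The replicate block by the sample numbers left the TNF counts at 5 and 0 at 24 h and at 7 and 1 at 72 h. From 72 h to 1 week it gave 9 and 4, without calls at Irf3 -0.3 kb and Irf5 -8.8 kb, and Irf5 -8.8 kb also lost its call between NSPs and 1 week. The block by the number in the library name gave 2 lower at 72 h. Whether those numbers mark shared cultures is not stated, and 72 h TNF libraries are numbered 2, 3 and 4 in the library names. Depth limits Irf8 +2.7 kb, Irf2 +31.3 kb, Irf1 +26.9 kb and Irf2 +89.5 kb most, with 2 to 7 reads in their lowest library.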
